A study of Homo sapiens with 6 samples.

Results

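The genes described here are neighbours on the long arm of chromosome 21, along bands 21q21 to 21q22, from ADAMTS1 at the end nearer the centromere to MX2 at the end nearer the telomere. A list of 51 symbols was given, and a gene was included where the array's annotation assigned a probe set to its symbol alone. By that rule 49 genes were measured, of 19775 genes in all. N6AMT1 was found under its current symbol HEMK2. RUNX1 and TTC3 share all their probe sets with other symbols and are not analysed here. The list was drawn up with the difference between the 2 cell lines already known, so that the differences below are a description of the listed genes and not a test of them.

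PC-3/Mc and PC-3/S are sublines of PC-3, a human prostate carcinoma cell line that came from a bone metastasis. RNA from each subline was measured on 3 one-colour Affymetrix arrays, in a study of epithelial-mesenchymal transition and tumor-initiating cells. Neither line carries a treatment or an engineered change in the labels, which do not say how the sublines were derived. Replicates are titled biological, but nothing says that they came from separate cultures, so that errors cover the scatter among these arrays alone and may be technical. All values are deposited log2 expression values of the brightest probe set of a gene, and each difference is the PC-3/Mc mean less the PC-3/S mean in log2 units, ± SE from limma, with n = 3 arrays per line.

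The 6 arrays had medians of 4.98 to 5.09, and correlated at 0.995 to 0.997 within a line and 0.949 to 0.953 between lines. The epithelial keratin KRT18 stood at 12.48 ± 0.13 in PC-3/Mc, against 11.32 ± 0.01 in PC-3/S (SD). The other epithelial markers did not all differ in 1 direction. KRT8 stood at 9.81 ± 0.09 in PC-3/Mc against 8.78 ± 0.14 in PC-3/S, and KRT19 at 11.28 ± 0.07 in PC-3/Mc against 11.76 ± 0.03 in PC-3/S. EPCAM stood at 11.88 ± 0.19 in PC-3/Mc against 6.44 ± 0.22 in PC-3/S, and E-cadherin (CDH1) at 7.67 ± 0.19 in PC-3/Mc against 3.999 ± 0.08, a background reading, in PC-3/S. CTNNA1, which is known to be deleted in PC-3, read at most 5.18 on any array, and this reading is used as a rough background level. Of 7 measured markers of blood, endothelial and fibroblast cells, 5 were at or under it in both lines; the exceptions were PECAM1, at 7.18 in PC-3/Mc against 6.58 in PC-3/S, and DCN, at 4.89 in PC-3/Mc against 5.33 in PC-3/S. The part of these markers in the results was not tested. KLK3, a luminal marker, was brighter than 5.18 in both lines and not called, with a mean of 6.73 for PC-3/S against 6.39 for PC-3/Mc. Whether unspecific signal can exceed 5.18 was not tested. Statements about genes whose brighter line lay between 5.18 and the KLK3 readings therefore depend on the level chosen. KCNJ15, DSCAM, SH3BGR, MX2 and DOP1B, each under 6.73 in both lines, are examples.

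The long arm of chromosome 21 holds genes of many unrelated functions, and it is best known from Down syndrome, in which an extra copy is present and genes such as DYRK1A and RCAN1 have been studied for their dosage. In prostate cancer it is known for ERG and TMPRSS2, which lie on this arm and are fused to each other in many tumors. The listed proteins include transcription factors, chromatin proteins, proteases, kinases, ubiquitin ligases, ion channels and metabolic enzymes. They are grouped by their place on the map and not by a pathway common to all of them.

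Starts of transcription lie close together at several places in this stretch, and 3 promoter windows show the arrangements that the values below refer to. They come from RefSeq on assembly GRCh38.p14 and run from 250 bases before to 50 bases after the annotated start. The SON window (chr21:33542788-33543087, plus strand) overlaps that of GART, which is read in the other direction from a start 146 bases away; capitals mark the 245 bases that both windows hold. The SLC5A3 window (chr21:34073328-34073627, plus strand) is the same as that of MRPS6, as both genes are annotated from 1 start; capitals mark the bases from that start on. The CBR1 window (chr21:36069774-36070073, plus strand) holds a match to the antioxidant response element on the other strand, in capitals.
SON: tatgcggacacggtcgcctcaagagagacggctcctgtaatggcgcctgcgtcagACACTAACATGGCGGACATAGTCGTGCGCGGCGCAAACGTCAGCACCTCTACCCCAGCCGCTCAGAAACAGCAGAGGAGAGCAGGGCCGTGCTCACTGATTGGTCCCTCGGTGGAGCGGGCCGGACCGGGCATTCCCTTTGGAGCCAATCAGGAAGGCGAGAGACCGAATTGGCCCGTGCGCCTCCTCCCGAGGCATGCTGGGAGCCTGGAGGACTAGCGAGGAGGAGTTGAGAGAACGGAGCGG
SLC5A3: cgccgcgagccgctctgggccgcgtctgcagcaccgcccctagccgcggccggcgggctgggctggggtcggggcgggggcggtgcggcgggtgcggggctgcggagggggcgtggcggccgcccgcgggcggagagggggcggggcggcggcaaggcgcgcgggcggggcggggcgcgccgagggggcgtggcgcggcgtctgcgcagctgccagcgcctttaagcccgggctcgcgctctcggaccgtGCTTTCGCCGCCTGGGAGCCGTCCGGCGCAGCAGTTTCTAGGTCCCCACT
CBR1: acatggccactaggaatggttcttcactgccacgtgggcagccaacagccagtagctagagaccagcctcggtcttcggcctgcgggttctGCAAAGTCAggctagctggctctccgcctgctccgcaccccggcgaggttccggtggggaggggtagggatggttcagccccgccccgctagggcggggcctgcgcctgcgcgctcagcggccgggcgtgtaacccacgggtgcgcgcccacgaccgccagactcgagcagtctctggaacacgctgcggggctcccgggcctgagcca

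Most of the listed genes were lower in PC-3/Mc than in PC-3/S. Of 49 measured genes, 36 were called lower, 2 were called higher and 11 were not called in a limma fit over all 19775 genes at a Benjamini-Hochberg adjusted p under 0.05; over all genes, 22.7% were called lower, 23.2% higher and 45.9% in either direction. The median difference was -0.80 over the listed genes and -0.03 over all genes, and the middle of the distribution was wide, with quartiles at -1.32 and -0.23. Differences ran from -3.17 for RCAN1 to 0.36 for PSMG1, and 44 of 49 were negative. Because the choice of genes used this contrast, nothing is read from these shares. In RNA from a whole culture, fewer cells that express a gene and less RNA per cell cannot be told apart.

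For most listed genes the 2 sets of arrays stood apart. All 3 PC-3/Mc arrays lay below all 3 PC-3/S arrays for 40 of 49, against 26.8% of all genes, and above them for 2, against 26.3%. The median level of the listed genes was 7.49, 7.46 and 7.26 on the PC-3/Mc arrays and 8.45, 8.41 and 8.55 on the PC-3/S arrays. A called difference of at least 2-fold was found for 19 genes, all lower in PC-3/Mc, against 5.58% of all genes met the same limit in that direction. In 8 genes both lines read at or under the background level (ADAMTS5, HUNK, CLIC6, KCNJ6, ERG, LCA5L, PCP4 and FAM3B), so that their differences, calls included, are not measured changes of expression. ERG, higher in PC-3/Mc, and FAM3B, lower, were called all the same.

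**Figure D1:**
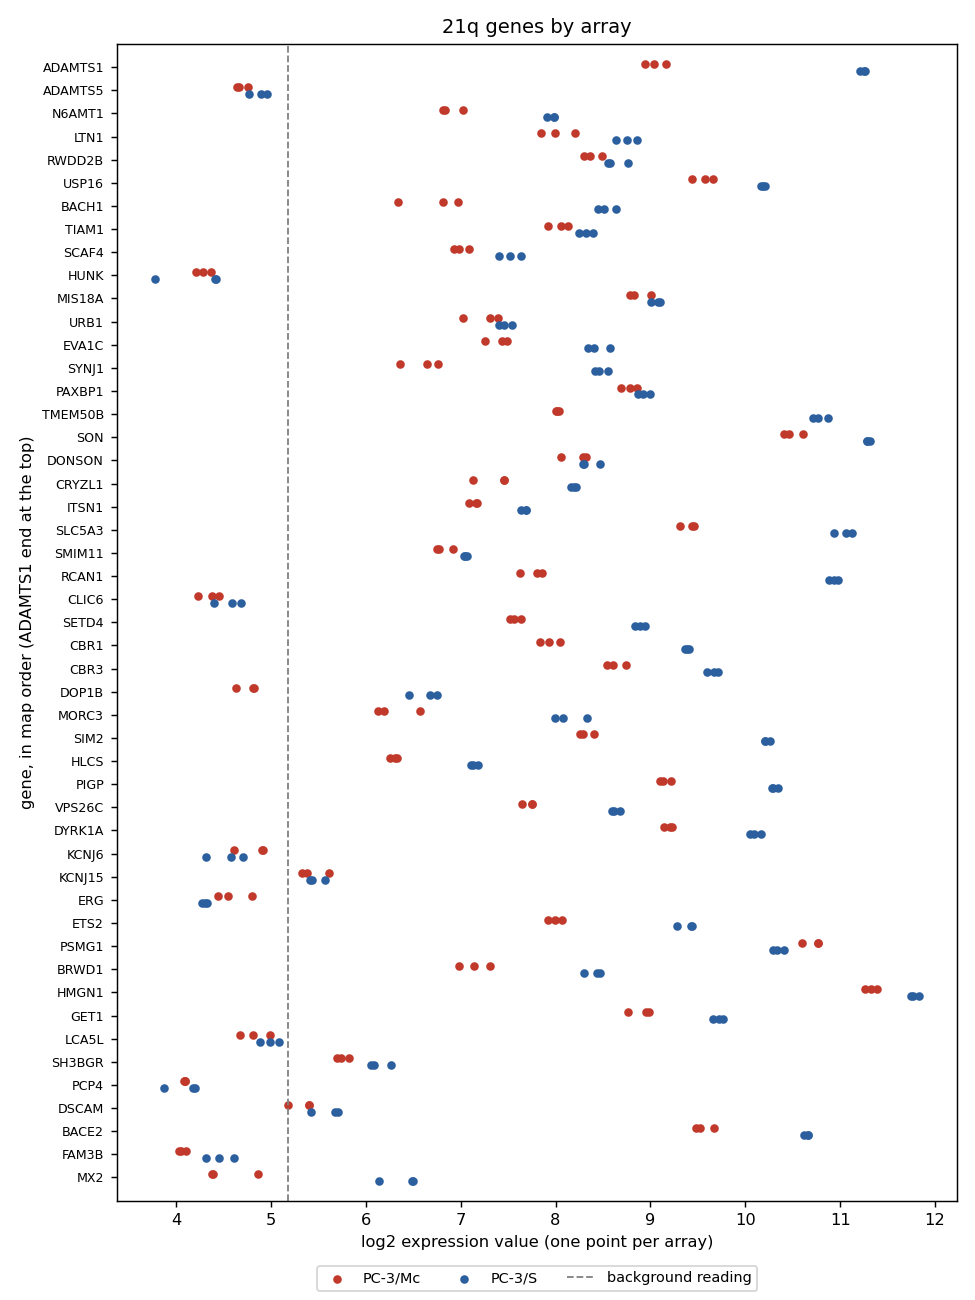
Log2 expression value of each listed gene on every array (x axis), with genes in map order down the page and PC-3/Mc points above PC-3/S points. The dashed line is the background reading of 5.18; PC-3/Mc points lie left of PC-3/S points without overlap for 40 of 49 genes.

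Among proteins that act outside the cell or at its surface, 5 of 6 were called lower in PC-3/Mc and 1 was not called. The 5 include FAM3B, at background in both lines, and DSCAM, whose call was lost in most other settings. Over all genes 22.7% were called lower, and this share stands beside each group count below. ADAMTS1, a secreted metalloprotease that cleaves proteoglycans, had values of 9.03, 9.16 and 8.95 in PC-3/Mc, against 11.20, 11.25 and 11.26 in PC-3/S, a difference of -2.19 ± 0.08 or 4.56-fold lower. Its other probe set gave -2.27. The PC-3/Mc arrays were all more than 2-fold below every PC-3/S array.

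ADAMTS5, the neighbouring gene for an aggrecanase of the same family, was at background in both lines, at 4.76, 4.64 and 4.66 in PC-3/Mc, against 4.89, 4.95 and 4.77 in PC-3/S. The aspartyl protease gene BACE2 had values of 9.67, 9.48 and 9.53 in PC-3/Mc against 10.62, 10.66 and 10.66 in PC-3/S, and differed by -1.09 ± 0.08; its 3 probe sets ran from -1.50 to -1.09. EVA1C, which encodes a heparin-binding membrane protein, differed by -1.04 ± 0.09. The arrays of the lines stood apart for both.

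The remaining members of this group were dim. DSCAM, a neuronal adhesion molecule, stood at 5.18, 5.40 and 5.40 in PC-3/Mc, against 5.70, 5.67 and 5.43 in PC-3/S, with a difference of -0.27 ± 0.10. Its call was lost in 10 of 13 other settings, and its sign turned (0.084) once probe sets with an _x_at or _s_at suffix, whose probes may match several transcripts, were left out. FAM3B, a secreted cytokine-like protein, read 4.11, 4.03 and 4.05 in PC-3/Mc, against 4.61, 4.46 and 4.31 in PC-3/S, under the background level throughout.

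Of 11 transcription factors and chromatin proteins, 8 were lower in PC-3/Mc, 1 was called higher and 2 were not called. The largest difference was that of SIM2, a bHLH-PAS transcription factor, at 8.40, 8.29 and 8.25 in PC-3/Mc, against 10.26, 10.21 and 10.20 in PC-3/S, a difference of -1.91 ± 0.08. All 3 of its probe sets were lower, with differences of -2.28 to -1.41. MORC3, a chromatin ATPase of PML nuclear bodies, had 6.19, 6.58 and 6.12 in PC-3/Mc, against 8.08, 7.99 and 8.33 in PC-3/S (-1.84 ± 0.13).

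BACH1, a repressor regulated by haem, had values of 6.81, 6.97 and 6.34 in PC-3/Mc, against 8.45, 8.52 and 8.63 in PC-3/S, a difference of -1.83 ± 0.14. PC-3/Mc replicate 3 was its lowest array, and without that array the difference was -1.64. The other 2 BACH1 probe sets were at background in both lines. The lines did not overlap on any of these factors.

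ETS2 and ERG are neighbouring genes of the ETS family of transcription factors, and only ETS2 was above background on these arrays. ETS2 had values of 8.07, 7.99 and 7.92 in PC-3/Mc against 9.43, 9.28 and 9.44 in PC-3/S, 2.62-fold lower. ERG had 4.55, 4.44 and 4.80 in PC-3/Mc against 4.33, 4.31 and 4.27 in PC-3/S. The call of ERG as higher (0.29 ± 0.10) thus concerns readings under the background level, and none of its 4 probe sets was above it.

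Other chromatin genes were lower by smaller amounts. SETD4, a SET-domain methyltransferase, differed by -1.32 ± 0.08, and BRWD1, a bromodomain protein, by -1.26 ± 0.10 on its brightest probe set. BRWD1 was the one gene with probe sets called in both directions. Of 8, 3 were called lower, at -1.26, -0.45 and, at background, -0.30, and 1, at background, higher (0.47). Others above background were not called, at 0.058, 0.23 and 0.11. The lower call was lost on the mean of all 8 (-0.15). The histone H2A deubiquitinase USP16 differed by -0.63 ± 0.08 and the nucleosome-binding protein HMGN1 by -0.46 ± 0.08.

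HMGN1 read 11.32, 11.39 and 11.26 in PC-3/Mc, against 11.77, 11.74 and 11.83 in PC-3/S, far above background in both lines. MIS18A, which helps to load the centromeric histone, and PAXBP1, a partner of PAX3 and PAX7, were not called on their brightest probe sets. Their differences were -0.19 ± 0.09 and -0.15 ± 0.08. Both had arrays that did not overlap between the lines, and both were called lower after quantile normalization. Further probe sets above background were called lower, at -0.37 for MIS18A and at -0.31 and -0.30 for PAXBP1. The remaining MIS18A probe set was not called (0.030).

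Among 7 measured genes of RNA and protein synthesis and quality control, 5 were lower, 1 was higher and 1 was not called. N6AMT1, which modifies a translation release factor, was at 7.02, 6.83 and 6.81 in PC-3/Mc, against 7.91, 7.98 and 7.98 in PC-3/S (-1.07 ± 0.08). SON, a splicing factor of nuclear speckles, had values of 10.46, 10.61 and 10.41 in PC-3/Mc against 11.28, 11.29 and 11.32 in PC-3/S, with a difference of -0.80 ± 0.08. All 5 SON probe sets were lower, with differences of -0.995 to -0.46.

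GET1, a receptor for tail-anchored proteins at the endoplasmic reticulum, differed by -0.81 ± 0.09 and SCAF4, which binds RNA polymerase II, by -0.52 ± 0.09. LTN1, a ubiquitin ligase that acts on stalled ribosomes, had 7.99, 8.20 and 7.84 in PC-3/Mc, against 8.63, 8.75 and 8.86 in PC-3/S (-0.74 ± 0.11). Its 2 further probe sets were dim and not called, so that the call was lost once _x_at and _s_at probe sets were left out (-0.11). The nucleolar factor URB1 was not called on its brightest probe set (-0.23 ± 0.10), while its other 2 were called lower, at -1.16 and -0.49.

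PSMG1, a chaperone of proteasome assembly, went the other way. It had values of 10.77, 10.77 and 10.60 in PC-3/Mc, against 10.29, 10.34 and 10.41 in PC-3/S, a difference of 0.36 ± 0.08 or 1.29-fold higher, and all PC-3/Mc arrays lay above all PC-3/S arrays. It was the only listed gene called higher with readings above background, on a single probe set, and it kept that call in each of the 13 other settings tried. The listed genes on either side of it, ETS2 and BRWD1, were both lower on their brightest probe sets.

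Of 7 signalling genes, 5 were lower and 2, HUNK and PCP4, were at background and not called. RCAN1, an inhibitor of the phosphatase calcineurin, had the largest difference of all listed genes, with 7.86, 7.80 and 7.62 in PC-3/Mc, against 10.98, 10.88 and 10.94 in PC-3/S. This is a difference of -3.17 ± 0.09, or 9.01-fold lower. Its 3 probe sets gave -3.17, -3.47 and, at background in both lines, -0.72.

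SYNJ1, a phosphoinositide phosphatase of endocytosis, had values of 6.65, 6.76 and 6.36 in PC-3/Mc against 8.45, 8.42 and 8.56 in PC-3/S (-1.89 ± 0.11). The endocytic scaffold gene ITSN1 differed less, by -0.53 ± 0.07, with 7.09, 7.17 and 7.16 in PC-3/Mc, against 7.63, 7.69 and 7.69 in PC-3/S. For both, the lines stood apart by more than the spread of either line.

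The kinase gene DYRK1A was at 9.23, 9.20 and 9.14 in PC-3/Mc, against 10.17, 10.05 and 10.09 in PC-3/S, a difference of -0.91 ± 0.08 or 1.88-fold lower. Once _x_at and _s_at probe sets were left out, DYRK1A rested on a probe set at background in both lines (0.016). TIAM1, which activates the GTPase RAC1, differed by -0.28 ± 0.09; its call was lost with centred arrays, when the third PC-3/Mc array was left out, and when the first PC-3/S array was. HUNK, a serine/threonine kinase, differed by 0.08 ± 0.15 and the calmodulin-binding PCP4 by 0.01 ± 0.10.

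Of 8 genes of transport and trafficking, 5 were lower and 3 were not called. TMEM50B, a gene for a membrane protein, had values of 8.04, 8.02 and 8.01 in PC-3/Mc, against 10.87, 10.72 and 10.77 in PC-3/S, a difference of -2.76 ± 0.08 or 6.79-fold lower. Of its 5 probe sets, 4 were called lower, at -1.28 to -2.76, and the fifth gave -0.23. SLC5A3, the cotransporter of sodium and myo-inositol, was at 9.46, 9.44 and 9.31 in PC-3/Mc, against 11.13, 11.06 and 10.94 in PC-3/S (-1.64 ± 0.08).

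DOP1B, a gene of the DOP1 family, was under the background level in PC-3/Mc, at 4.81, 4.63 and 4.82, against 6.68, 6.45 and 6.75 in PC-3/S. Set against the background reading, it was at least 2.73-fold lower in PC-3/Mc. VPS26C, a subunit of the retriever complex that recycles membrane proteins, differed by -0.91 ± 0.08. SMIM11, a small membrane protein, differed by -0.24 ± 0.08, and its call was lost in 9 of the 13 other settings. Of its 3 probe sets, all above background, 2 were called lower, at -0.24 and -0.65, and the third was not (-0.17).

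The potassium channel genes KCNJ6 and KCNJ15 are neighbours of 1 family and were dim. KCNJ6 had 4.61, 4.91 and 4.90 in PC-3/Mc, against 4.31, 4.71 and 4.58 in PC-3/S, all at background. KCNJ15 had 5.38, 5.33 and 5.61 in PC-3/Mc, against 5.42, 5.57 and 5.43 in PC-3/S, slightly above it. The lines overlapped for both, and for CLIC6, a chloride intracellular channel gene at background, which differed by -0.20 ± 0.10.

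All 5 measured metabolic genes were lower in PC-3/Mc. CBR1 and CBR3 encode carbonyl reductases, enzymes that reduce quinones and other carbonyl compounds, and lie next to each other. CBR1 had values of 8.05, 7.83 and 7.93 in PC-3/Mc against 9.39, 9.36 and 9.41 in PC-3/S (-1.45 ± 0.08), and CBR3 had 8.75, 8.60 and 8.55 in PC-3/Mc against 9.67, 9.59 and 9.72 in PC-3/S (-1.03 ± 0.08). The lines did not overlap for either gene, each measured on 1 probe set.

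PIGP, a subunit of the enzyme that starts the synthesis of glycosylphosphatidylinositol anchors, had 9.22, 9.14 and 9.10 in PC-3/Mc, against 10.29, 10.28 and 10.34 in PC-3/S, 2.23-fold lower. HLCS, which attaches biotin to carboxylases, differed by -0.85 ± 0.07 and its second probe set by -0.74. CRYZL1, a quinone oxidoreductase-like gene, differed by -0.84 ± 0.10. These 3 genes, too, had no overlap between the lines.

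The last 5 genes fall into no group. MX2, an antiviral GTPase induced by interferon, had 4.39, 4.38 and 4.86 in PC-3/Mc, under the background level, against 6.48, 6.50 and 6.14 in PC-3/S; against the background reading it was at least 2.29-fold lower. SH3BGR differed by -0.37 ± 0.09 and RWDD2B by -0.25 ± 0.09, and the RWDD2B call was lost in 7 of the 13 other settings. DONSON, a DNA replication factor, had 8.32, 8.29 and 8.06 in PC-3/Mc, against 8.30, 8.29 and 8.47 in PC-3/S, and LCA5L was at background; neither was called, and the lines overlapped for both.

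**Figure D2:**
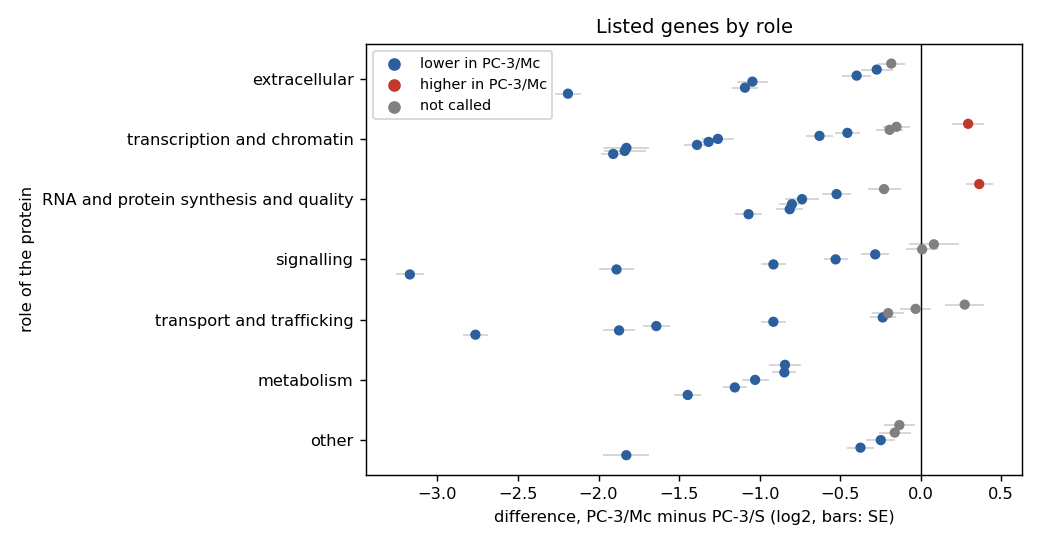
Difference between the lines (x axis, log2, PC-3/Mc minus PC-3/S, bars are SE) for each listed gene, grouped by the role of its protein. Blue points are called lower in PC-3/Mc, red points higher and grey points neither; each group has most of its points left of 0, and RCAN1 in the signalling group lies farthest left at -3.17.

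Several genes were measured more than once, which gives a second reading of the same RNA. The 49 genes had 136 probe sets, of which 48 were at or under background in both lines. Tested as single probe sets, 84 of 136 were called lower and 3 higher. Of all 41091 single-symbol probe sets, 8221 (20.0%) were called lower and 8928 higher. Of 36 genes with more than 1 probe set, BRWD1 alone had probe sets called in both directions. The median difference was -0.40 over the 136 probe sets and -0.01 over all single-symbol probe sets.

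**Figure D3:**
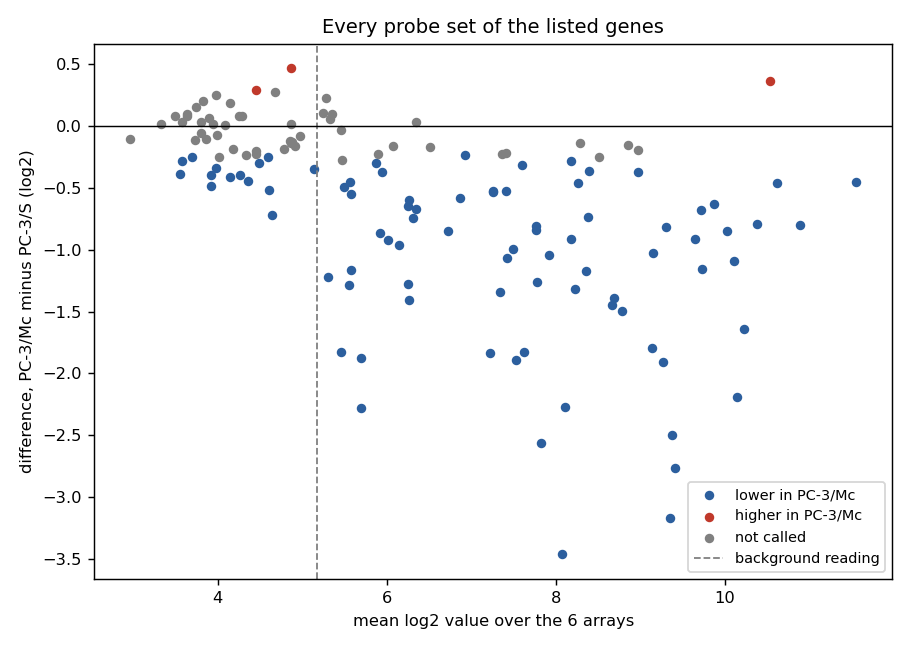
Difference between the lines (y axis, log2, PC-3/Mc minus PC-3/S) of all 136 probe sets of the listed genes against their mean log2 value over the 6 arrays (x axis). The vertical spread is wider right of the dashed background reading of 5.18, down to -3.47 for RCAN1; of the 3 red points, called higher in PC-3/Mc, ERG and BRWD1 lie left of that line and PSMG1 lies right of it.

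Read along the map, lower calls came in runs of 1 to 10 listed genes. On their brightest probe sets, HUNK, MIS18A and URB1 stood together without a call, as did KCNJ6 and KCNJ15 next to ERG. ETS2 and SH3BGR were lower between genes that were not. These gaps depend on level and on the choice of probe set. HUNK, KCNJ6, ERG, LCA5L and PCP4 were at background in both lines. The other URB1 probe sets were called lower (-1.16 and -0.49), as was 1 of MIS18A (-0.37), while another of MIS18A was not (0.030). From SETD4 to DYRK1A, 10 measured listed genes in a row were called lower, with differences of -1.91 to -0.85 and a median of -1.24. A run of 7 from N6AMT1 to SCAF4 had differences of -1.83 to -0.25 and a median of -0.63. These runs were picked out after their values were seen. Among all measured chromosome 21 genes with a line above background, listed or not, the longest run of lower calls held 15 genes, from SMIM11 to PIGP.

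Pairs of genes with close starts did not always differ alike. SON and GART, which encodes a trifunctional enzyme of purine synthesis, start 146 bases apart in opposite directions and share most of the window printed above. SON differed by -0.80 ± 0.08 and GART by 0.35 ± 0.08, with GART at 9.53 in PC-3/Mc, against 9.18 in PC-3/S. The GART values are those of the brightest of its 9 probe sets, and the others were not compared. SLC5A3 and the mitochondrial ribosomal protein gene MRPS6, annotated from the same start, differed by -1.64 ± 0.08 and -1.52 ± 0.08.

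In all, 7 pairs had measured divergent starts within 1000 bases and a listed gene. CRYZL1 and ITSN1, 760 bases apart, were both lower, as were DOP1B and CBR3-AS1 (-0.71 ± 0.10) at 516 bases. BRWD1, on its brightest probe set, and BRWD1-AS2 (-0.37 ± 0.09), 275 bases apart, were called lower too. TIAM1 was called lower and TIAM1-AS1, 146 bases away, was not called (-0.11 ± 0.09). SYNJ1 (-1.89 ± 0.11) faces PAXBP1-AS1 (0.12 ± 0.09, not called) at 101 bases. BRWD1-AS2, TIAM1-AS1 and PAXBP1-AS1 were at or under background in both lines. Their pairs thus cannot show whether close starts differ alike. URB1 (-0.23 ± 0.10, not called) faces URB1-AS1 (-1.56 ± 0.09) at 121 bases. The pairs of close starts were chosen after the values were seen.

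The promoter windows of the listed genes were rich in G and C, with a median of 67.3% over 59 windows of 33 genes, against 58.7% over all 35116 windows of the table. The antioxidant response element TGACNNNGC, searched on both strands, matched 8 of the 59 windows (13.6%) and 13.3% of all windows. The matches lay in CBR1, VPS26C, DYRK1A, KCNJ15, ETS2, PSMG1 and DSCAM. A core of the interferon-stimulated response element, GAAANNGAA, matched 4 windows (6.78%), in BACH1, RCAN1, PIGP and DYRK1A, and 8.11% of all windows. Both motifs were thus about as frequent in these windows as in the whole table.

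The genes on either side of the list give its edges. Before ADAMTS1, the nearest measured genes were CYYR1, at 6.22 in PC-3/Mc, against 4.63 in PC-3/S (1.60 ± 0.10, at least 2.07-fold higher against background), APP, the amyloid precursor gene, at 9.33 in PC-3/Mc against 11.02 in PC-3/S (-1.69 ± 0.13), and GABPA (-0.30 ± 0.09). After MX2 came its paralog MX1, at 4.37 in PC-3/Mc, against 8.18 in PC-3/S, at least 8.05-fold lower. TMPRSS2, an androgen-responsive serine protease gene, followed with -0.41 ± 0.10. LINC00479, at background in both lines, came next with -0.13 ± 0.09, not called. Just inside, ADAMTS1 stood at -2.19 and MX2 at -1.83. CYYR1, next to ADAMTS1, was thus higher, while APP and GABPA beyond it were lower. At the other end MX2 and MX1 were both lower.

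Genes between ADAMTS1 and MX2 that were not on the list were mostly dim. Of 66, 42 were at or under background in both lines. Of the 66, 21 were called lower, 2 higher and 43 not called, with a median difference of -0.09. Of the 24 with a line above background, 15 were lower and 1 higher (median -0.37), against 30.7% and 33.5% of all genes with such a reading. The largest differences were those of the tight junction gene CLDN14 (-1.96 ± 0.12), URB1-AS1 and MRPS6, and GART was the only gene called higher whose brighter mean reached the median of all genes, 5.98. After MX2, where 26 of 88 genes were at or under background in both lines, 45 were lower, 3 higher and 40 not called, with a median of -0.27. Of the 62 with a line above background in that stretch, 41 were lower and 3 higher (median -0.46). There the collagen gene COL6A2 (-3.93 ± 0.10), MX1 and the trefoil factor gene TFF2 (-3.27 ± 0.08) were lowest, while CBS, an enzyme of homocysteine metabolism, was higher by a factor of at least 9.44 in PC-3/Mc, with SLX9 higher by 0.35 ± 0.10.

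Before ADAMTS1, 24 of 39 genes were at or under background in both lines. Of the 39, 11 were called lower, 6 higher and 22 not called, and the median was -0.06. Of the 15 with a line above background, 10 were lower and 4 higher (median -0.49). The coxsackievirus and adenovirus receptor gene CXADR was higher in PC-3/Mc by a factor of at least 17.9, and the antiproliferative gene BTG3 by at least 18.04, while C21orf91 was at least 10.8-fold lower and HSPA13, a chaperone of the HSP70 family, differed by -1.29 ± 0.13. Genes that moved in opposite directions thus lay close together in that stretch.

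**Figure D4:**
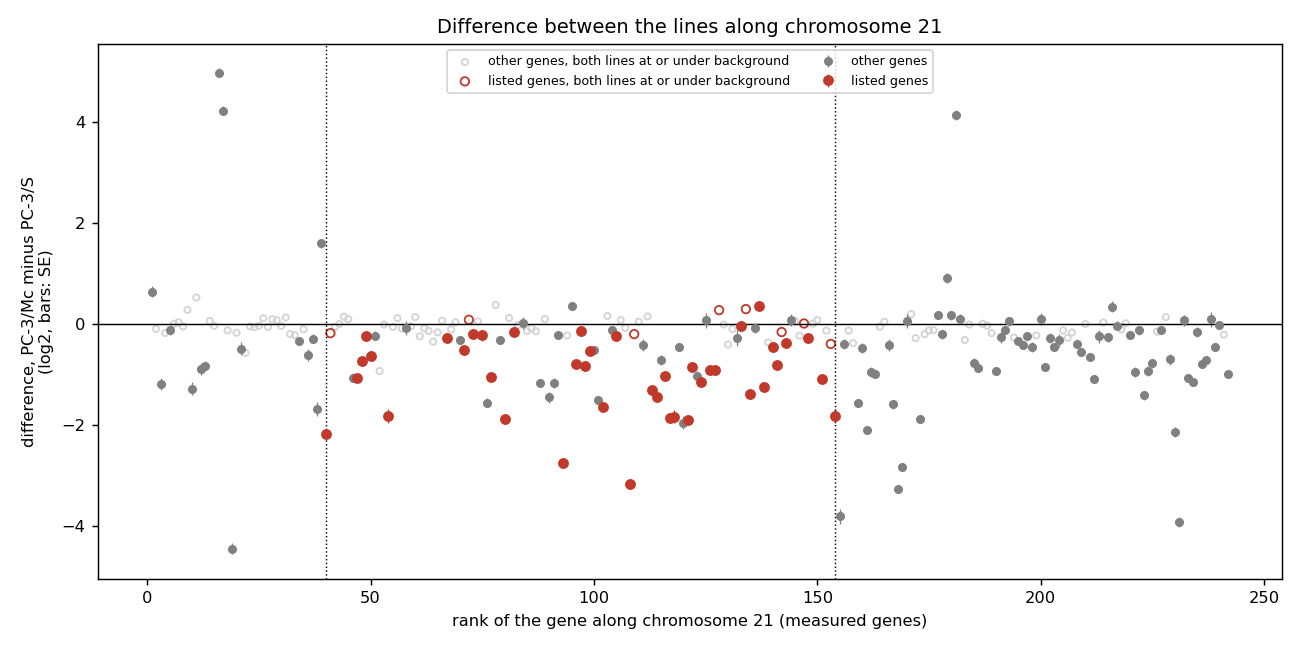
Difference between the lines (y axis, log2, PC-3/Mc minus PC-3/S, bars are SE) of 242 measured genes by their rank along chromosome 21 (x axis). Filled red points are listed genes, grey points other genes, open points genes at or under background in both lines, and dotted lines mark ADAMTS1 and MX2; of the 49 listed genes 44 lie below 0.

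The same counts were made for each chromosome as a description. Chromosome 21 had 46.7% of 242 genes lower and 5.37% higher, and a median difference of -0.22. Leaving out the listed genes, 77 of its other 193 genes were lower (39.9%) and 11 higher (5.70%), with a median of -0.15. Chromosome 20 came next among chromosomes 1 to 22 and X, with 35.2% lower, 8.16% higher and a median of -0.12. At the other end chromosome 9 had 14.7% lower, 35.4% higher and a median of 0.08. DNA was not measured in these samples.

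**Figure D5:**
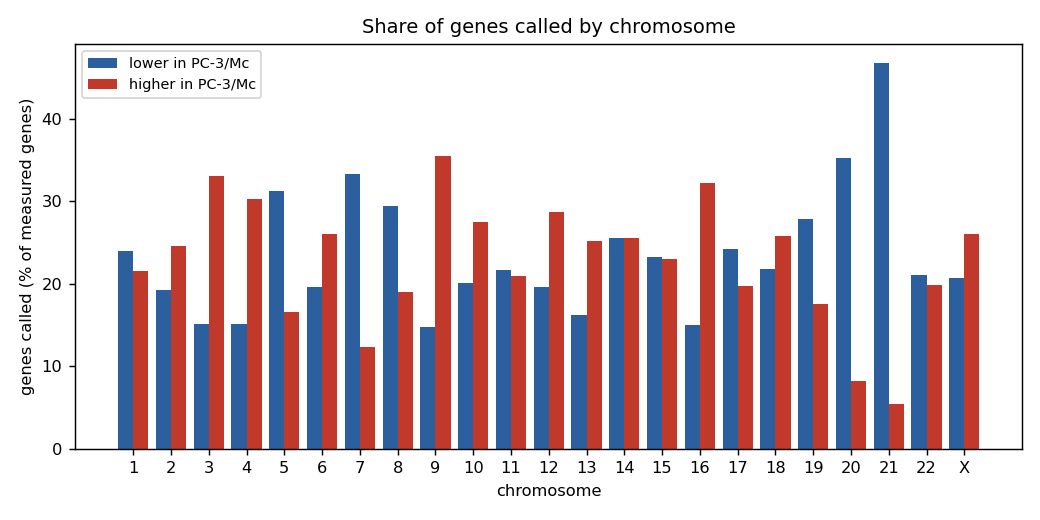
Percentage of measured genes called lower (blue) and higher (red) in PC-3/Mc, by chromosome. Chromosome 21 has 46.7% lower and 5.37% higher, and chromosome 9 has 14.7% lower and 35.4% higher.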

How the data were processed

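Expression was measured on 6 one-colour Affymetrix arrays, 3 of PC-3/Mc and 3 of PC-3/S, grouped by their titles. The authors deposited a table of log2 values for 54675 probe sets and 6 arrays, from biotin-labelled target made by the manufacturer's protocol, per the labels. For background correction, summary and normalization no source used here gives a method; the log2 base was settled from the range of values (2.59 to 14.45), and the scaling between arrays stays unknown. Values entered the tests as deposited.

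Of the probe sets, 41091 had 1 gene symbol in the platform annotation, 1801 had several, 11721 none, and 62 were controls. Each of 19775 genes was represented by its single-symbol probe set with the highest mean over all arrays. Map order came from the RefSeq gene table of GRCh38.p14, with identifiers of 41037 probe sets found. No source used here names the build of the array's own annotation, so only gene order was used to place the probe sets. Promoter windows and distances between starts use RefSeq coordinates. Differences were fitted with limma 3.58.1 in R 4.3.3 (lmFit, eBayes, two-sided, no covariates), with Benjamini-Hochberg adjustment over all genes and a threshold of 0.05. The median SE was 0.092, and the number of arrays limits the precision. Where the dimmer line lay at or under the highest CTNNA1 reading of 5 probe sets (5.18), a fold is a lower bound: the mean of the brighter line against that of the dimmer with each array raised to that reading. The fit was also run on simulated data with independent noise and few changed genes. In the real data 45.9% of genes were called, so that run checks the code and not the error rate here.

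The listed genes, the role groups and the tests were chosen with earlier results of these data known. All listed genes are named. Outside the list, named genes are the 3 nearest to either end and, in each stretch, the 3 largest called differences per direction whose brighter mean reached the median of all genes (5.98); other names were chosen after their values were seen. Promoter windows were matched by symbol for 33 of the 49 genes. Alternatives were quantile normalization, centring, a filter at the 40th percentile of level, other choices of probe sets, an intensity trend, a block on replicate number and each array left out.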

Additional observations from a re-analysis of the deposited data

How the results depend on the processing

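The listed genes were compared under 13 other settings, 6 of which left out 1 array each. Their lower calls numbered 39 of 49 after quantile normalization (24.1% of all genes), 32 with arrays centred on their medians (19.5%), 35 of 41 without dim genes (32.3%), 29 of 44 with _x_at and _s_at probe sets left out (20.1%), 37 on the mean over probe sets (21.99%), 35 with an intensity trend (22.9%) and 33 with the replicate block (19.8%). The median difference moved to -0.91 without dim genes, -0.66 with _x_at and _s_at probe sets left out and -0.54 on the mean over probe sets. Genes called higher fell to 1 without dim genes and on the mean over probe sets, PSMG1 both times, as ERG had no call there. With _x_at and _s_at probe sets left out, DYRK1A (0.016) and DSCAM (0.084) turned sign, on dim probe sets.

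With 1 array left out, in 6 fits, lower calls of listed genes ranged from 32 to 36, higher calls from 1 to 2 and the median from -0.85 to -0.73. Over all genes in the same 6 fits, lower calls ranged from 3829 to 4845 and higher calls from 4146 to 4647. The higher call of ERG was lost in 5 of these 6, all but the one lacking the second PC-3/Mc array; KCNJ6, at background, was called higher in 2, lacking the first PC-3/Mc or the second PC-3/S array. KCNJ6 was also called higher after quantile normalization, with centring and with the replicate block; ERG lost its call under the block. Over all 13 settings, lower calls were lost most often for DSCAM (10 settings), SMIM11 (9), RWDD2B (7) and TIAM1 (3). Counts of the other chromosome 21 genes called lower stayed within 1.5 times the reported ones in all 13 settings. Deviations of same-numbered arrays from their line means correlated at -0.020, -0.26 and -0.38. Deviations within a line of 3 arrays are tied to each other, so these values cannot settle whether the numbers pair the samples. With the replicate block 33 listed genes were lower and 2 higher. Signal near background limits what can be said of the 8 genes under 5.18 in both lines.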
